A study of Danio rerio with 11 samples.

Results

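Wnt proteins are secreted lipid-modified signals that bind Frizzled receptors on the cell surface. In the canonical branch a receptor signal passes through Dishevelled to a destruction complex built on Axin and the kinase Gsk3. When that complex is held back, β-catenin is no longer degraded and acts in the nucleus with the DNA-binding proteins Lef1 and Tcf. In vertebrate embryos this pathway is known for keeping the tailbud progenitors of the mesoderm and for patterning mesoderm, while a non-canonical branch with Wnt5b and Wnt11 is known in zebrafish for steering cell movements during gastrulation. The genes described here are those whose symbol on the array begins with wnt, fzd, dvl, axin, dkk, sfrp, porcn, ctnnb, lef1, tcf7 or gsk3, and prefixes for Lrp5, Lrp6 and Apc found no probe set. The rule uses the symbol and no measured value. They make 45 of the 15502 probe sets tested, a probe set being a group of short probes on the array for 1 transcript. Of these, 44 name 1 gene each and cover 37 genes, 7 of them with 2 probe sets (called a and b in the order of their identifiers), and 1 probe set is annotated to both wnt8a and wnt8-2. By role there were 11 probe sets for ligands, 1 for ligand maturation, 12 for receptors, 6 for secreted inhibitors, 2 for Dishevelled, 5 for the destruction complex and 8 for β-catenin and its nuclear partners.

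The study compared zebrafish embryos homozygous for the b104 allele of spadetail (spt, the gene tbx16, which encodes a T-box transcription factor of the mesoderm) with spt+/+ embryos, called wild type, at 2 stages on 11 Affymetrix arrays. All embryos descended from a cross with a line in which the pax2a promoter drives GFP. At the 4/5-somite stage there were 3 spt arrays (replicates 3, 4 and 5) and 2 wild-type arrays (replicates 1 and 2). They held amplified RNA from GFP-positive intermediate mesoderm sorted from pooled embryos whose heads had been removed. The sort aimed at cells in which the pax2a promoter was active. These cells were few, and the purity of the sort was not measured on them. At the 21-somite stage, 3 spt arrays (replicates 4, 5 and 6) and 3 wild-type arrays (replicates 1, 2 and 3) held unamplified RNA from the middle part of pooled tails, which contain paraxial and intermediate mesoderm, notochord and spinal cord. RNA extraction was repeated on separate clutches, but the labels do not say which arrays share one. A wild-type array of the earlier stage that the authors set aside was not analysed here. By their account it clustered apart from the other wild-type arrays and had much lower blood markers such as gata1. Leaving it out may make the 2 wild-type arrays kept look more alike.

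Signals are linear array intensities, normalized within a stage, and a signal of 100 marks the level below which the study filtered probe sets. A mean signal of at least 100 was reached by 42 of the 45 members at each stage, against 73.7% of all probe sets at 4/5 and 84% at 21 somites. The targeted transcript checked the labels at 21 somites, where 1 of the 2 probe sets of tbx16 gave 424, 409 and 445 in spt and 1485, 958 and 1296 in wild type (log2 fold change -1.49, limma adjusted p = 0.0065), and the other differed by -0.75 (adjusted p = 0.108). At 4/5 somites the same probe set stood near or below 100 on every array and gave no check. Several lists of tissue markers differed between the genotypes, and others overlapped. In the sorted cells the summed signal of 10 blood genes was 5748 to 7621 in spt and 20976 to 23259 in wild type. The array set aside had low blood markers, so this difference is not independent of that choice. The sum of 15 neural genes was 5365 to 6887 in spt and 7614 to 9222 in wild type. That of 14 paraxial mesoderm and muscle genes was 1775 to 2431 in spt and 2713 to 2999 in wild type. Gene by gene the neural and paraxial lists were mixed, with 6 of 15 and 6 of 14 higher in spt. A sox3 probe set gave much of the neural sum, at 2771, 2986 and 3863 in spt and 5946 and 4290 in wild type. pax2a, the gene of the sorting reporter, was at 1012, 1293 and 517 in spt and 268 and 267 in wild type on 1 of its probe sets (log2 fold change 1.66, adjusted p = 0.624), while the other differed by -0.45. For 7 pronephros genes, which mark the intermediate mesoderm itself, the sums were 6299 to 11928 in spt and 6929 to 7364 in wild type. Gene by gene 5 of the 7 were higher in spt. Much of the sum came from hnf1bb, at 7341, 8365 and 4540 in spt and 5290 and 5660 in wild type. lhx1a was higher in spt by 0.92, 0.83 and 0.89 on its probe sets (limma adjusted p = 0.688, 0.687 and 0.698). The sum of 11 tailbud genes overlapped, at 3897 to 9273 in spt and 2539 to 5516 in wild type. Of the 11 genes 6 were higher in spt. On 1 probe set hoxb10a differed by 2.04 (limma adjusted p = 0.487), on its others by -0.07 and 0.29, and bmp4 by -0.61. Sums of the notochord, epidermis and endothelium lists overlapped too, with 2 of 7, 4 of 10 and 1 of 4 genes higher in spt. In the epidermis list cdh1 differed by 1.35 (adjusted p = 0.580). In the tails the blood sum was 2682 to 3717 in spt and 11066 to 16178 in wild type. The paraxial and muscle sum was 13185 to 14392 in spt and 24330 to 26392 in wild type. The neural sum was 16538 to 17521 in spt and 11907 to 13263 in wild type. The sums of 7 notochord, 10 epidermis and 11 tailbud genes overlapped in the tails, with 6 of 7, 10 of 10 and 8 of 11 genes higher in spt. The tailbud list includes tbx16 itself, the mutated gene, whose signals in spt tails were far lower as given above. Its sum thus counts that gene against spt, and a sum without tbx16 was not made. In the tailbud list hoxc13a and hoxd13a differed by 0.57 and 0.73 (limma adjusted p = 0.423 and 0.457), with overlapping arrays. Over all probe sets 49.1% were higher in spt at 4/5 and 50.1% at 21 somites. The part of these tissue differences in the Wnt values was not tested. Fewer cells of a type and less RNA per cell cannot be told apart in such samples.

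In sorted intermediate mesoderm at 4/5 somites, several surface components of the pathway gave higher signals in spt, among them the ligand probe set of wnt8a and wnt8-2 and the receptors fzd7a and fzd2, but no member passed the test across all probe sets. Of the 45 probe sets, 31 were higher in spt and 14 lower, with a median log2 fold change of 0.11 against -0.01 over all 15502, of which 49.1% were higher. None was called at a limma adjusted p under 0.05, nor was any of the 15502 (0%). The smallest adjusted p among members was 0.168, and 5 members had an unadjusted p under 0.05 (7.2% of all probe sets did). The study picked candidate genes by a fold of 1.5 or more at an unadjusted p under 0.05. It reported a high false-positive rate for its candidates at this stage, and in situ hybridization bore out only a minority of those screened. The genes screened were ones lower in spt, so that screen did not cover genes higher in spt. By a test of whole gene sets, not repeated here, the study reported its Wnt list as significantly higher in spt at this stage. Among the genes that drove this result it names wnt8, fzd10, wnt11 and fzd7, so the values of these genes below are no separate evidence. In the present fit wnt11 was not higher in spt (-0.27), and the fzd10 probe sets differed (0.00 and 0.66). Here the study's thresholds for candidate genes, called the candidate rule, were put on the limma fit, whereas the study used other software and another normalization. The rule was met by 5 members, all of them higher in spt. That is 11.1% of members, against 3.07% of all probe sets higher in spt, 2.73% lower in spt and 5.8% in either direction. Without wild-type replicate 1 the number was 3, against 4.81% of all probe sets in either direction. All spt arrays lay above all wild-type arrays for 17 members (37.8%, against 12.4% of all probe sets) and below them for 1 (2.22%, against 14.5%). With 3 arrays against 2 and amplified RNA, the 95% interval of a member's log2 fold change reached a median of 0.67 to either side. In a fit of all 11 arrays with 1 common spread, 3 members were called at this stage, against 2.18% of all probe sets in that fit, namely axin1 (b) with an adjusted p of 0.00136, wnt8a/wnt8-2 with 0.0146 and fzd7a with 0.0194. The candidate rule was met by 8 members in that fit, against 12.8% of all probe sets. Its common spread is drawn partly from the tail arrays, where intervals of members were narrower (median 0.36 to either side). Errors at 4/5 somites may therefore be too small in that fit, and its adjusted p-values too low.

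**Figure D1:**
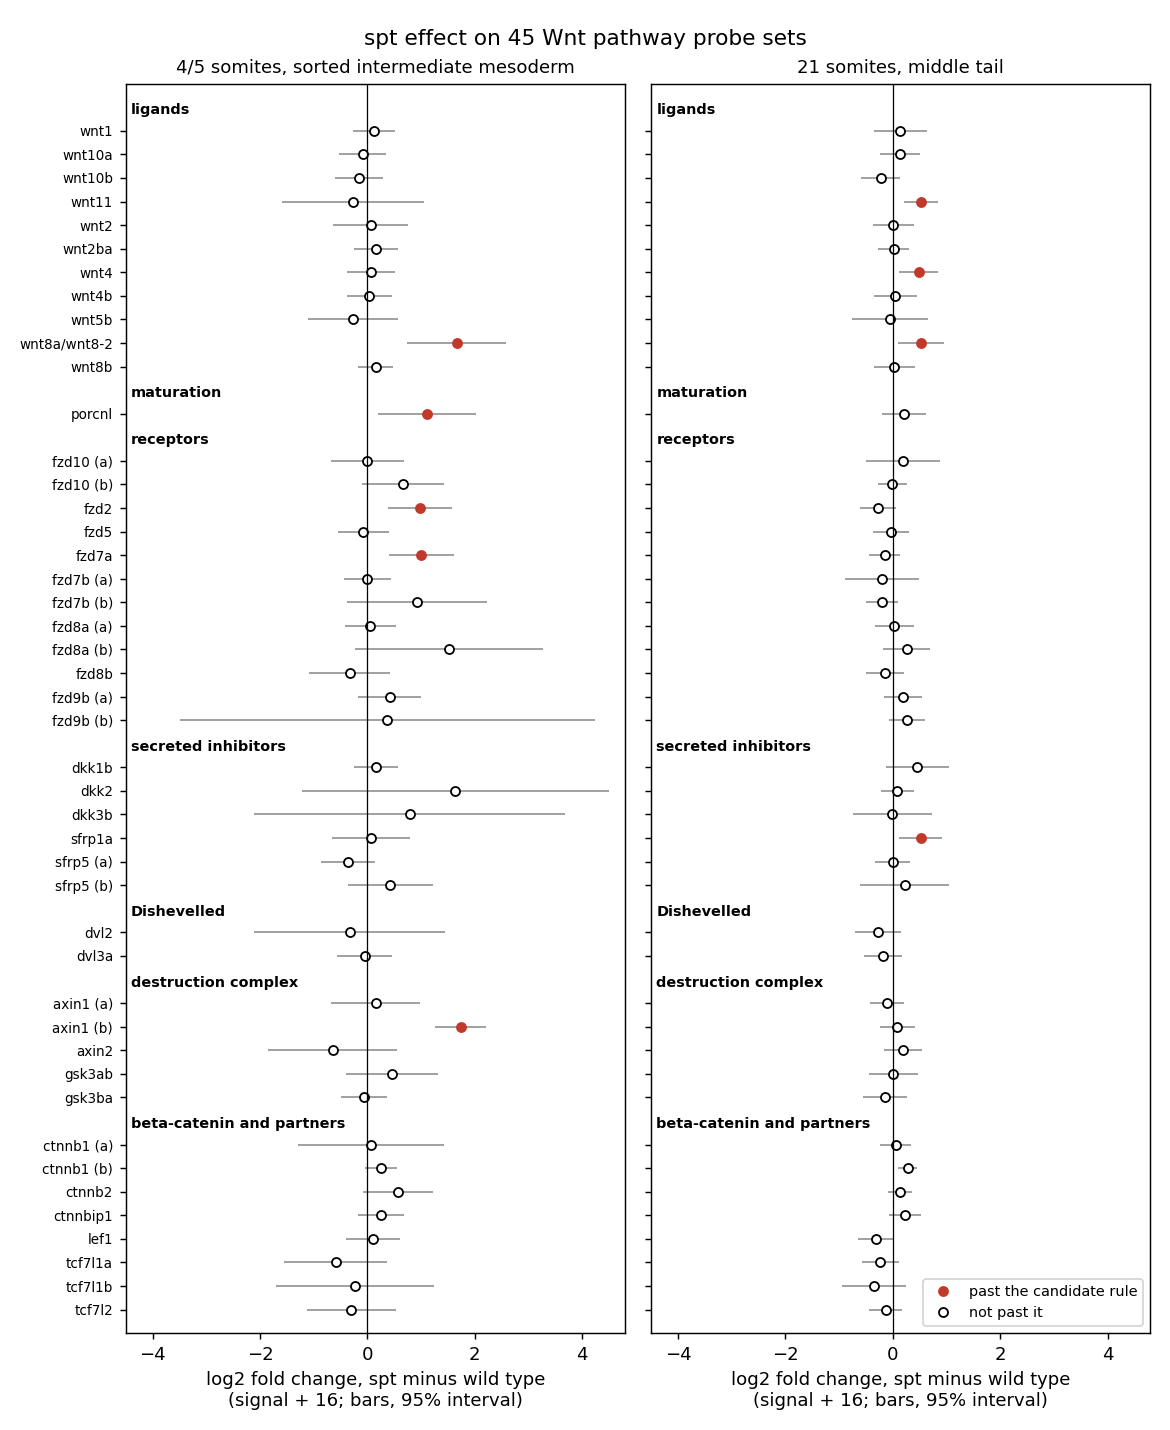
Log2 fold change (spt minus wild type, of signal + 16) of each of the 45 probe sets by role, at 4/5 somites on the left and 21 somites on the right, with limma 95% intervals as bars. Letters a and b mark a pair of probe sets of 1 gene, and filled points passed the candidate rule, 5 at the earlier stage and 4 at the later one, all higher in spt.

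Among the 11 ligand probe sets, 7 were higher in spt at 4/5 somites and 4 lower, with a median log2 fold change of 0.06, and wnt8a/wnt8-2 stood apart. Wnt8a is a canonical ligand of the early ventrolateral mesoderm. Its probe set gave 1390, 871 and 918 in spt replicates 3, 4 and 5, against 311 and 323 in wild-type replicates 1 and 2. The lowest spt array was thus well above both wild-type arrays, and the log2 fold change was 1.66 (SE 0.36, adjusted p = 0.50). The other 10 ligands lay between -0.27 and 0.16. The ligands wnt5b and wnt11 of the non-canonical branch varied more within a genotype than between genotypes. For wnt11 the signals were 63.2, 167 and 148 in spt, against 226 and 91.0 in wild type, and for wnt5b they were 158, 280 and 148 in spt, against 214 and 246 in wild type. wnt4, with roles in kidney and nervous system, was almost level, at 150, 174 and 138 in spt and 144 and 149 in wild type. The arrays of wnt1 and wnt8b did not overlap, with spt higher by 0.12 and 0.15 on the log2 scale. Both were dim, with wnt1 between 133 and 155 and wnt8b below 100 on every array. The arrays of wnt2, wnt2ba, wnt4b, wnt10a and wnt10b overlapped, and wnt2ba was below 100 on every array.

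porcnl is related to Porcupine, the membrane enzyme that adds the lipid Wnt proteins need for secretion. It gave 379, 365 and 203 in spt, against 112 and 157 in wild type (log2 fold change 1.11, SE 0.36, adjusted p = 0.669). All 3 spt arrays exceeded both wild-type arrays, with replicate 5 nearest to them.

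Of the 12 Frizzled probe sets 10 were higher in spt, with a median log2 fold change of 0.39 and 6 probe sets whose spt arrays were all above wild type, beside 49.1% and 12.4% of all probe sets. Of the 10, fzd10 (a) and fzd7b (a) were at 0.00 and turned below 0 without further normalization and under median scaling. fzd7a gave 2821, 2746 and 3492 in spt, against 1535 and 1446 in wild type. This is about a doubling (log2 fold change 1.0, SE 0.24, adjusted p = 0.565) with close replicates in both genotypes. fzd2 gave 149, 165 and 236 in spt, against 78.6 and 87.7 in wild type (0.98, SE 0.23, adjusted p = 0.565), so that its wild-type signals were below 100 and its spt signals above. fzd7b (b) gave 1219, 816 and 2287 in spt, against 639 and 744 in wild type, in the same direction as its paralogue fzd7a but with a wide spread in spt (0.92, SE 0.51, adjusted p = 0.688). fzd7b (a) showed no such difference, at 122, 110 and 122 in spt and 136 and 102 in wild type.

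The 2 probe sets of fzd10 and of fzd8a split in the same way. For fzd10, probe set b gave 450, 477 and 533 in spt, against 350 and 257 in wild type (0.66, SE 0.30), while probe set a gave 151, 239 and 155 in spt and 165 and 192 in wild type (0.00, SE 0.26). For fzd8a, which falls outside the rule for named genes and was picked after its values were seen, probe set b gave 1144, 1053 and 294 in spt, against 191 and 293 in wild type (1.52, SE 0.69, adjusted p = 0.688), and spt replicate 5 was level with wild-type replicate 2. Its second probe set differed by 0.05. The fzd9b probe set a was higher in spt by 0.41 with no overlap, whereas probe set b varied at least as much within each genotype, at 34.1, 689 and 220 in spt and 28.4 and 540 in wild type. Only fzd5 (-0.08) and fzd8b (-0.33) were lower in spt, with overlapping arrays.

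**Figure D2:**
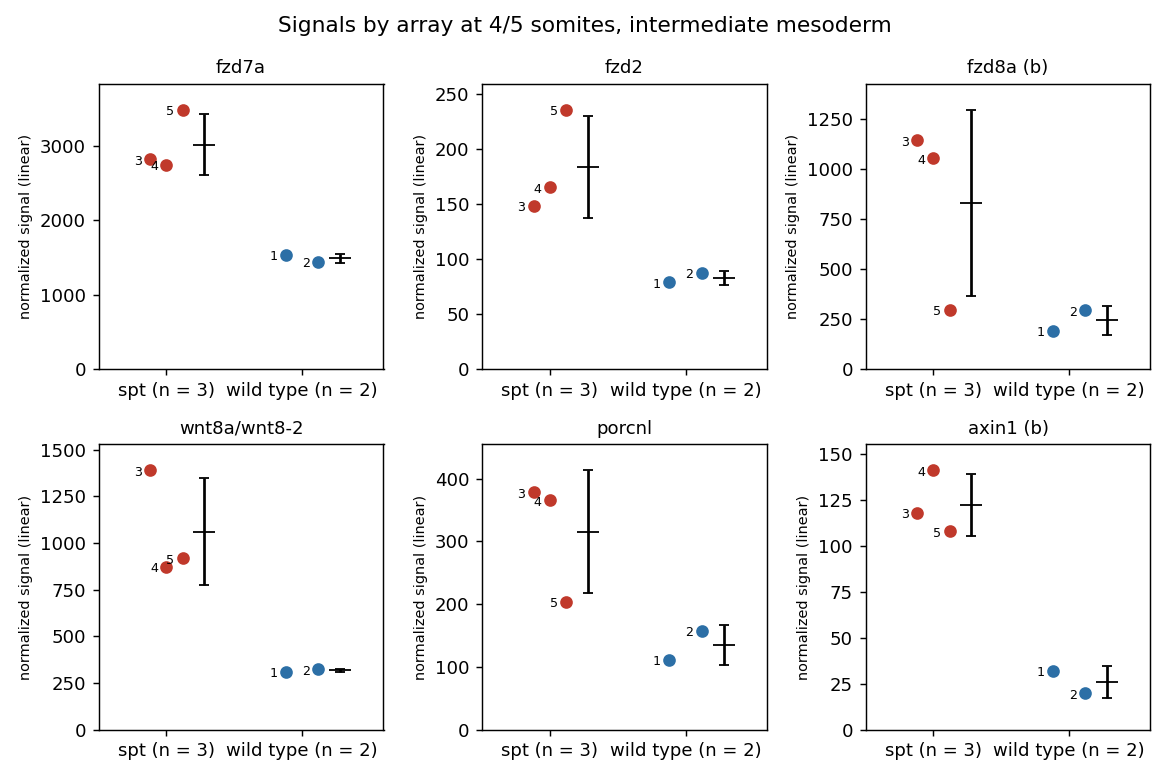
Normalized linear signal of 6 members on each array of sorted intermediate mesoderm at 4/5 somites, spt (n = 3) left of wild type (n = 2), with the mean and SD beside the points and replicate numbers at the points. For wnt8a/wnt8-2 the spt arrays sit between 871 and 1390 and the wild-type arrays at 311 and 323, and for fzd7a they sit between 2746 and 3492 in spt and between 1446 and 1535 in wild type.

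Secreted inhibitors bind Wnt proteins (the Sfrp family) or the Lrp co-receptors (most Dkk proteins), and 5 of their 6 probe sets were higher in spt, none past the candidate rule. The larger differences came with a wide spread. dkk2 gave 85, 1047 and 87.3 in spt, against 64.3 and 48.3 in wild type, with a log2 fold change of 1.63 (SE 1.1) that was 0.50 without spt replicate 4, the only high array. dkk3b gave 46.4, 515 and 375 in spt and 268 and 49.6 in wild type, with low and high arrays in both genotypes. sfrp1a gave 154, 113 and 75.1 in spt, against 105 and 103 in wild type (0.07, SE 0.29). The 2 probe sets of sfrp5 went opposite ways without overlap. Probe set b gave 582, 579 and 619 in spt and 507 and 377 in wild type (0.42, SE 0.31), whereas probe set a gave 175, 144 and 149 in spt and 187 and 225 in wild type (-0.37, SE 0.20), the only member whose spt arrays all lay below wild type. dkk1b, at 168, 172 and 170 in spt and 157 and 146 in wild type, differed by 0.16.

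Inside the cell the picture was mixed. Both Dishevelled genes were lower in spt by small amounts with overlapping arrays. dvl3a gave 202, 214 and 190 in spt and 193 and 227 in wild type, and dvl2 gave 110, 435 and 350 in spt and 212 and 508 in wild type. Axin1 is the scaffold of the destruction complex, and its 2 probe sets disagreed. Probe set b gave 118, 141 and 108 in spt, against 31.9 and 19.7 in wild type. This was the largest difference among the members relative to its error (log2 fold change 1.74, SE 0.19, adjusted p = 0.168), between a level near 100 in spt and a level far below it in wild type. Probe set a gave 411, 518 and 473 in spt and 498 and 350 in wild type (0.15, SE 0.32). Because the gene's probe sets differ, the change of axin1 is uncertain.

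axin2, which in many tissues is itself switched on by canonical signals, gave 222, 557 and 272 in spt, against 579 and 461 in wild type, where 2 spt arrays were below and 1 between the wild-type arrays (-0.65, SE 0.47, adjusted p = 0.715). For the kinase genes, gsk3ab gave 2942, 1983 and 1794 in spt and 1850 and 1360 in wild type (0.46, SE 0.34), and gsk3ba differed by -0.06. β-catenin is encoded by ctnnb1 and ctnnb2 in zebrafish. ctnnb2 gave 6273, 4299 and 7259 in spt, against 3989 and 3813 in wild type, with no overlap (0.57, SE 0.25, adjusted p = 0.688). ctnnb1 (b) gave 6851, 6851 and 7916 in spt and 5970 and 6049 in wild type (0.26, SE 0.12), and its probe set a gave 193, 159 and 274 in spt and 346 and 104 in wild type. The spt arrays of ctnnbip1, an inhibitor that keeps β-catenin from Tcf, were also all above wild type (0.25). The DNA-binding partners did not share this. lef1 differed by 0.11 and tcf7l1a, tcf7l1b and tcf7l2 by -0.59, -0.24 and -0.30, all with overlapping arrays.

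In the middle tail at 21 somites wnt11, wnt4, wnt8a/wnt8-2 and sfrp1a were each about 1.4 to 1.5 times as high in spt as in wild type. Of the 45 members 27 were higher in spt and 18 lower, with a median log2 fold change of 0.03 against 0.00 over all probe sets, of which 50.1% were higher. No member was called, against 107 of the 15502 probe sets (0.69%), and the smallest adjusted p was 0.219. By its test of whole gene sets, not repeated here, the study reported no significant change of its Wnt list in these tails. An unadjusted p under 0.05 was reached by 5 members, against 7.44% of all probe sets. The candidate rule of this stage, which asks for a smaller fold, was met by 4 members, all higher in spt (8.89% of members, against 3.66% of all probe sets higher in spt, 3.35% lower and 7.01% in either direction), and by 1 in the fit of all 11 arrays with 1 common spread, against 3.34% of all probe sets there. The arrays did not overlap for 7 members higher in spt (15.6%, against 6.01%) and 3 lower in spt (6.67%, against 6.2%). The 95% interval reached a median of 0.36 to either side. It comes from an unpaired fit, so spread that arrays of both genotypes share would be part of it. The median size of a log2 fold change, whatever its sign, was 0.18 over members and 0.12 over all probe sets here, and 0.27 over members and 0.26 over all probe sets at 4/5 somites.

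Of the 11 ligands 9 were higher in spt at 21 somites. wnt11 gave 1543, 1427 and 1270 in spt replicates 4, 5 and 6, against 1059, 923 and 932 in wild-type replicates 1, 2 and 3 (log2 fold change 0.53, SE 0.14, adjusted p = 0.219). wnt4 gave 552, 581 and 499 in spt, against 397, 331 and 432 in wild type (0.48, SE 0.16, adjusted p = 0.417). In both genes every spt array exceeded every wild-type array. The wnt8a/wnt8-2 probe set gave 463, 381 and 353 in spt, against 332, 263 and 223 in wild type (0.53, SE 0.19, adjusted p = 0.459), again without overlap. wnt5b ranged widely in both genotypes, at 416, 574 and 818 in spt and 476, 479 and 944 in wild type (-0.05, SE 0.31). The other 7 ligands lay between -0.22 (wnt10b) and 0.14 (wnt1), all with overlapping arrays, and porcnl gave 323, 375 and 387 in spt and 373, 252 and 314 in wild type (0.21, SE 0.18). Neural genes moved with genotype in the same tissue, where 14 of the 15 neural markers were higher in spt and 10 had an unadjusted p under 0.05. The epidermal markers were higher in spt in 10 of 10 genes, 4 with an unadjusted p under 0.05 by limma. Their sums overlapped, at 28573 to 37446 in spt and 22869 to 30405 in wild type. Also higher in spt were 7 of 7 pronephros markers, with sums of 2843 to 3408 in spt and 1346 to 2026 in wild type and cdh17 called (log2 fold change 1.90, adjusted p = 0.00298), and 4 of 4 endothelial markers. The share of this in the values of wnt11, wnt4, wnt8a/wnt8-2 and sfrp1a was not tested.

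**Figure D3:**
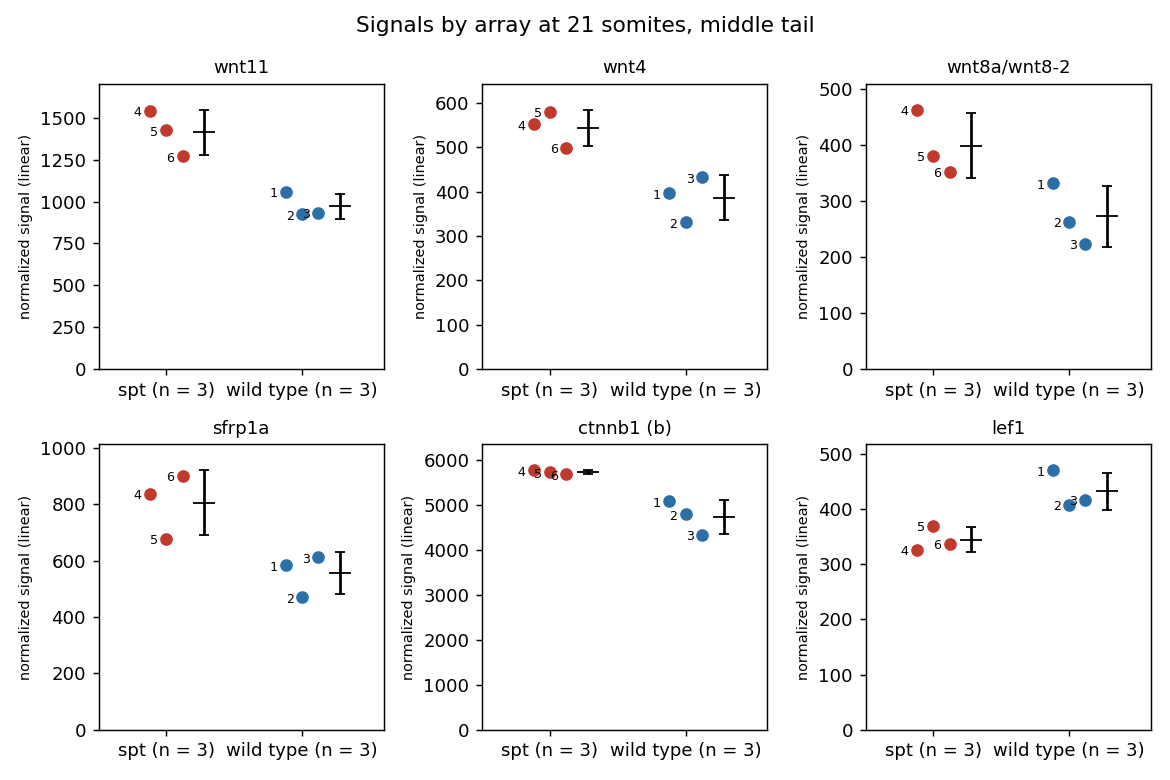
Normalized linear signal of 6 members on each array of the middle tail at 21 somites, spt (n = 3) left of wild type (n = 3), with the mean and SD beside the points and replicate numbers at the points. All spt arrays lie above all wild-type arrays for wnt11, wnt4, wnt8a/wnt8-2, sfrp1a and ctnnb1, and below them for lef1.

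Among the receptors of the tail, 5 of 12 probe sets were higher in spt and 7 lower, and none passed the candidate rule. fzd2 gave 1080, 1228 and 1055 in spt, against 1250, 1576 and 1244 in wild type, lower in spt without overlap (-0.27, SE 0.15, adjusted p = 0.854). fzd7a gave 1597, 1440 and 1553 in spt and 1908, 1584 and 1626 in wild type (-0.15, SE 0.13), and fzd7b (b) gave 1598, 1744 and 1704 in spt and 1859, 2233 and 1713 in wild type (-0.19, SE 0.13). These 3 probe sets, about 2 times as high in spt at 4/5 somites, were here between 0.83 and 0.90 times the wild-type mean. For fzd10, probe set b was level, at 1588, 1672 and 1686 in spt and 1654, 1522 and 1796 in wild type, and probe set a spread from 634 to 1085 in spt and from 499 to 1155 in wild type. fzd7b (a) spread likewise, from 419 to 618 in spt and from 359 to 909 in wild type. The remaining probe sets, of fzd5, fzd8a, fzd8b and fzd9b, lay between -0.14 and 0.26, and only fzd9b (b) had spt arrays that were all above wild type.

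Of the inhibitors, sfrp1a gave 837, 677 and 900 in spt, against 584, 470 and 612 in wild type (0.52, SE 0.17, adjusted p = 0.417). Every spt array was above every wild-type array. dkk1b, a target of canonical signals in many tissues, gave 242, 284 and 243 in spt and 213, 247 and 111 in wild type, where wild-type replicate 3 alone was low (0.46, SE 0.26). dkk3b (-0.01, SE 0.32), sfrp5 (0.00 and 0.22) and dkk2 (0.08, all signals below 100) had overlapping arrays.

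Inside the cell, ctnnb1 (b) gave 5760, 5713 and 5675 in spt, against 5069, 4780 and 4326 in wild type, a small difference with an unadjusted p of 0.00723 (log2 fold change 0.28, SE 0.08, adjusted p = 0.287) that stayed under the fold of the candidate rule. The second ctnnb1 probe set differed by 0.05 and ctnnb2 by 0.14, both with overlap. ctnnbip1 was higher in spt without overlap (0.23). The Tcf and Lef genes were all lower in spt. lef1, a partner of β-catenin that is also one of its targets, gave 327, 370 and 337 in spt, against 470, 408 and 417 in wild type (-0.31, SE 0.15, adjusted p = 0.721), and tcf7l1a gave 364, 298 and 335 in spt, against 374, 429 and 372 in wild type (-0.23, SE 0.15), both without overlap and both named after their values were seen. tcf7l1b (-0.35) and tcf7l2 (-0.13) had overlapping arrays. The summed signal of paraxial and muscle markers was also lower in these spt tails, and its part in the lef1 value was not tested.

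The 2 probe sets of axin1 gave -0.10 and 0.08 at 21 somites. Probe set b, which separated the genotypes earlier, was here at 503, 512 and 529 in spt and 515, 440 and 503 in wild type. axin2 gave 914, 878 and 896 in spt and 928, 759 and 676 in wild type (0.19, SE 0.16), gsk3ab differed by 0.01 and gsk3ba by -0.14. dvl2 (-0.27, SE 0.19) and dvl3a (-0.18, SE 0.15) were again lower in spt, with overlapping arrays. No component of the destruction complex or Dishevelled passed the candidate rule in the tail.

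Set side by side, the stages differ in tissue, in RNA amplification and in age, which cannot be told apart. The spt value was higher at both stages for 23 probe sets, higher at 4/5 and lower at 21 somites for 8, lower and then higher for 4, and lower at both for 10. How far the spt effect differed from stage to stage was tested by an interaction term over the 11 arrays. That fit took 1 common spread, although intervals of members were wider at 4/5 somites (median 0.67 to either side) than at 21 somites (0.36). Its p-values thus rest on a spread that the stages need not share. In it 1 member was called, against 0.484% of all probe sets. This was axin1 (b), with an effect of 1.74 at 4/5 and 0.08 at 21 somites and a difference of -1.65 (SE 0.25, adjusted p = 0.0225). The call was lost without wild-type replicate 2 of the earlier stage (adjusted p = 0.0535) and without any 1 of the 6 tail arrays (0.0557 to 0.0829), with the difference between -1.43 and -1.72. fzd7a came next, with a difference of -1.16 (SE 0.24, adjusted p = 0.0775) that passed the threshold without spt replicate 4 of the earlier stage (adjusted p = 0.0329). The differences of fzd2 (-1.25, SE 0.33, adjusted p = 0.189) and wnt8a/wnt8-2 (-1.13, SE 0.37, adjusted p = 0.319) did not pass. In all, 7 members had an unadjusted p under 0.05 for this difference, against 9.28% of all probe sets. The other 3 of them were fzd7b (b), porcnl and fzd10 (b). In all 7 the effect was smaller or more negative at 21 somites, while 17 of the 45 members had a positive difference. These 7 were picked by the difference itself, and the share of each direction over all probe sets was not counted.

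**Figure D4:**
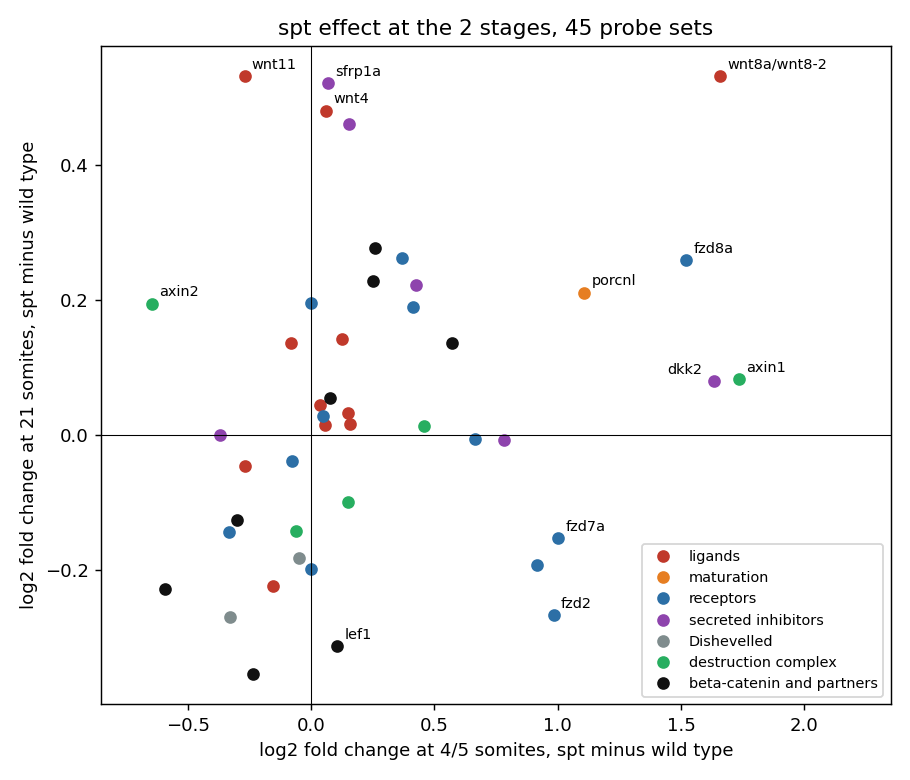
Log2 fold change (spt minus wild type) of each of the 45 probe sets at 4/5 somites on the horizontal axis and at 21 somites on the vertical axis, coloured by role. Receptors fzd7a and fzd2 lie right of 0 and below 0, wnt8a/wnt8-2 lies at 1.66 and 0.53, and the labelled axin1 and fzd8a points are their probe sets b.

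Other genes of the pathway were described from lists of further surface proteins, further intracellular components and target genes, of which 10, 28 and 16 genes were on the array (the targets include the members axin2, dkk1b and lef1). Counted by 1 probe set per gene, none was called at either stage, beside 0% of all probe sets at 4/5 and 0.69% at 21 somites. At 4/5 somites 5 of 10 surface genes, 15 of 28 intracellular genes and 9 of 16 targets were higher in spt, with median log2 fold changes of 0.04, 0.10 and 0.13. At 21 somites these counts were 6, 19 and 7, with medians of 0.03, 0.05 and -0.06. Over all probe sets the medians were -0.01 at 4/5 and 0.00 at 21 somites, and 49.1% and 50.1% were higher in spt. An unadjusted p under 0.05 was reached by 1, 2 and 2 genes of the 3 lists at 4/5 somites, against 7.2% of all probe sets. At 21 somites it was reached by 0, 1 and 3 genes, against 7.44% of all probe sets.

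Among the targets of the sorted cells, sp5l, a transcription factor induced by canonical Wnt signals in zebrafish, gave 1005, 1008 and 531 in spt, against 243 and 156 in wild type (log2 fold change 1.97, SE 0.44, adjusted p = 0.516). The casein kinase gene csnk1g2b gave 1135, 980 and 1143 in spt, against 161 and 368 in wild type (2.07, SE 0.44, adjusted p = 0.495), but its other probe set was level (-0.06, all signals below 100). msgn1, a regulator of presomitic mesoderm, gave 127, 105 and 109 in spt, against 246 and 616 in wild type (-1.66, SE 0.41, adjusted p = 0.580), with its other probe set under 50 on every array. dact2, a Dishevelled-binding protein, gave 1538, 1234 and 958 in spt, against 1861 and 2453 in wild type (-0.80, SE 0.33, adjusted p = 0.688). In each of these 4 probe sets the genotypes did not overlap.

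In the tail the targets nearest to a call were lower in spt. The same probe set of msgn1 gave 2650, 2113 and 2329 in spt, against 5415, 4200 and 3519 in wild type (-0.87, SE 0.16, adjusted p = 0.0574), and myca, a Myc gene with roles in growth, gave 164, 128 and 115 in spt, against 327, 252 and 235 in wild type (-0.92, SE 0.18, adjusted p = 0.0755). Both of these probe sets separated the genotypes fully, but the other probe set of msgn1 overlapped (-0.63, adjusted p = 0.872). tbx6, named after its values were seen, gave 1808, 1710 and 1453 in spt, against 3471, 3040 and 1818 in wild type (-0.69, SE 0.22, adjusted p = 0.383). msgn1 and tbx6 are themselves markers of the paraxial mesoderm, whose summed signal was lower in spt. The study describes tbx6 as directly regulated by tbx16 as well as by Wnt signals. It also cites earlier work on whole embryos of a younger stage in which msgn1 and tbx6 were lower in spt. From its own arrays, the same as here, the study had reported both genes lower in spt at both stages. At 4/5 somites its p-values for them were far from significance. What lowered these targets was not tested. sp5l, higher in spt earlier, gave 2055, 2061 and 1779 in spt and 2020, 1571 and 1572 in wild type (0.20, adjusted p = 0.976). The probe sets of wls, the carrier that takes Wnt proteins to the cell surface, disagreed at 21 somites, at 0.40 (adjusted p = 0.653), 0.10 and -0.66 (adjusted p = 0.321), while at 4/5 somites they were higher in spt by 0.88, 0.81 and 1.14 (adjusted p = 0.688, 0.688 and 0.612). csnk1e, another casein kinase gene, was higher in spt tails by 0.29 (adjusted p = 0.839).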

How the data were processed

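Each of the 11 samples was 1 single-colour Affymetrix Zebrafish Genome Array, and its genotype, stage and replicate were read from its label. Images were quantified by the authors in Affymetrix software (MAS5, version 5.0 in the submitters' processing notes), and linear intensity values were deposited, 1 per probe set and array. Which scaling between arrays these carry is not given in the sources used here. Detection calls were not used.

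Of 15617 probe sets, 115 controls were left out. The annotation gave 10795 of the rest 1 symbol, 135 several and 4572 none. A probe set (of ctnnbl1) was dropped by the rule for members, and another that names fzd7b after other genes was not taken. Each stage was quantile normalized on its own, 16 was added, and limma 3.58.1 in R 4.3.3 was fitted to the log2 values, with its trend option on and genotype as the only term. Adjusted p-values are limma's, by Benjamini and Hochberg over all 15502 probe sets, at a threshold of 0.05. A fold change on this scale understates the change of dim probe sets. The interaction was fitted on all 11 arrays with 1 common spread. Means with SDs are of normalized signals. The fit was tested on simulated data. Python 3.11.15 with numpy 2.4.6, pandas 2.3.3 and matplotlib 3.10.9 was used for tables and figures.

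The members and gene lists were chosen with earlier results of these data known. Named are members called or past the candidate rule with a mean signal of at least 100 in either genotype and no overlap, the 2 highest-signal probe sets of each role and stage with all probe sets of those genes, and from the other lists up to 4 called genes a stage and direction, otherwise up to 2 by smallest p. Other members were named after their values were seen. Of the 45 members 42 had a mean signal of at least 100 at each stage, and all 45 were tested. Alternatives were no further normalization, median scaling, pseudocounts of 1 and 64, a filter on signals below 100, no variance trend, 1 fit of all arrays and leaving out each array. No sequences were printed, because none were given for these genes. Arrays have no read depth, and the number of arrays limits the precision. At 4/5 somites 67.6% to 71.1% of probe sets reached a signal of 100 on an array, and at 21 somites 80.8% to 84.8%.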

Additional observations from a re-analysis of the deposited data

Results flagged for a closer look

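One result differed between the stages by a test of the difference itself. The fit took 1 common spread for both stages, though intervals of members were wider at 4/5 somites. For axin1 (b) the effect of spt at 21 somites minus that at 4/5 somites was -1.65 on the log2 scale (SE 0.25, adjusted p = 0.0225 by limma). The signals were 118, 141 and 108 in spt and 31.9 and 19.7 in wild type at 4/5 somites, and 503, 512 and 529 in spt and 515, 440 and 503 in wild type at 21 somites. axin1 (a) had a difference of -0.25 (SE 0.31, adjusted p = 0.876).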

How the results depend on the processing

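The number of members called was 0 at 21 somites under every alternative tried. At 4/5 somites it was 0 under all but the fit of all 11 arrays, which called 3 (2.18% of all probe sets) and had 8 members past the candidate rule (12.8% of all probe sets), where 5 are reported, while at 21 somites that fit left 1 of 4 (3.34% of all probe sets). Leaving out 1 array gave 3 to 7 members past the candidate rule at 4/5 somites, 3 to 6 at 21 somites and 0 to 2 called for the difference between stages. With a pseudocount of 64 that last number was 0 (axin1, probe set b, -0.98, adjusted p = 0.0778). Over all alternatives the smallest adjusted p among members was 0.00136 to 0.332 at 4/5 somites, 0.189 to 0.689 at 21 somites and 0.0168 to 0.0829 for the difference.

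Of 742 single-gene values under alternatives, 689 kept their direction and side of the threshold and 41 turned their sign, all of these near 0 or with a wide spread and with adjusted p of at least 0.549. At 4/5 somites, no further normalization gave -0.0011 for wnt4, -0.059 for fzd10 (a) and -0.057 for fzd7b (a). Median scaling gave -0.0036 for that fzd10 and -0.0029 for that fzd7b probe set, a pseudocount of 1 gave -0.0011 for the fzd10 and a pseudocount of 64 gave -0.0015 for the fzd7b probe set. At 21 somites, no further normalization gave 0.014 for dkk3b and 0.013 for fzd10 (b), and median scaling gave -0.012 for sfrp5 (a). The cause was not tested.

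Leaving out single arrays at 4/5 somites gave -0.097 to 0.40 for axin1 (a), -0.74 to 0.87 for ctnnb1 (a), -0.26 to 1.84 for dkk3b, -0.94 to 0.28 for dvl2, -0.16 to 0.059 for dvl3a, -0.20 to 0.11 for fzd10 (a), -0.18 to 0.18 for fzd7b (a), -0.15 to 0.30 for sfrp1a, -0.86 to 0.32 for wnt11 and -0.025 to 0.13 for wnt4. At 21 somites it gave -0.066 to 0.15 for ctnnb1 (a), -0.31 to 0.34 for dkk3b, -0.087 to 0.51 for fzd10 (a), -0.063 to 0.054 for fzd10 (b), -0.53 to 0.12 for fzd7b (a), -0.20 to 0.18 for gsk3ab, -0.090 to 0.057 for sfrp5 (a), -0.051 to 0.63 for sfrp5 (b) and -0.29 to 0.28 for wnt5b. Where an arm of 4/5 somites then held 1 array, it was assumed to vary like the others.

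No paired analysis was possible because the genotypes share no replicate number within a stage and no label ties an array of one genotype to an array of the other. At 21 somites the deviations from the group means correlated across probe sets at 0.79 between spt replicate 4 and wild-type replicate 1, at 0.50 between spt 5 and wild-type 2 and at 0.44 between spt 6 and wild-type 3, a description over probe sets that share arrays. What these arrays have in common is not given in the sources used here. The number of arrays, 2 or 3 in a group, limits the precision.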
